A study of Arabidopsis thaliana with 12 samples.

Results

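The nuclear genes of the photosystems and their light-harvesting antennae were examined in *Arabidopsis thaliana* seedlings. They comprise 14 LHCB genes, 6 LHCA genes, 12 nuclear PSA genes and 10 nuclear PSB genes. They were chosen by gene identifier and not by a measured level, though with earlier results of these data known. All 42 of the 42 listed were found among the 16755 genes of the RNA-seq table. The RNA was rRNA-depleted RNA from 3 libraries of *ago4*, which carries the *ago4-1* allele introgressed into Col-0, compared by the authors with Col-0 libraries that were handled in parallel and belong to another data set. Hi-C, which records which DNA segments lie close together in the nucleus, was performed in 3 libraries each of Col-0, *nrpe1* and *ago4*. All seedlings were grown in long days and were 2 to 3 weeks old. For Hi-C the paper states above-ground tissue after 2 weeks of growth, and for the RNA it names only seedlings. AGO4 binds small RNAs and NRPE1 is the large subunit of RNA polymerase V, and both act in RNA-directed DNA methylation (RdDM). The RNA-seq table gives 1 mean level per gene over the libraries, so the levels below have no replicate error, their depth is unknown and neither genotype can be shown alone. The change of these genes in *ago4* is therefore not reported here. The fold changes and p-values that the authors placed in the table are their own comparison and were not used.

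Light is collected by chlorophyll-binding antenna proteins. LHCB proteins serve mainly photosystem II, which oxidises water, and LHCA proteins serve photosystem I, which reduces ferredoxin. The reaction-centre proteins are encoded in the chloroplast genome, while the antenna proteins and many small or peripheral subunits (PSA for photosystem I, PSB for photosystem II) are encoded in the nucleus and imported.

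Several antenna genes are near-identical copies, so sequence decides how well their reads can be told apart. *LHCB1.1* (AT1G29920), *LHCB1.2* (AT1G29910) and *LHCB1.3* (AT1G29930) encode the main trimeric antenna protein and lie side by side on chromosome 1, with 1153 bp between *LHCB1.2* and *LHCB1.1* and 1915 bp between *LHCB1.1* and *LHCB1.3*. Their coding sequences were 95.6% (*LHCB1.1* with *LHCB1.2*), 96.1% (*LHCB1.1* with *LHCB1.3*) and 96.4% (*LHCB1.2* with *LHCB1.3*) identical, and the proteins they predict 100%, 99.6% and 99.6%. Windows of 60 bases of the coding sequence, counted from the first base of the start codon, were compared at every codon start. Among these windows the 3 copies differed most at positions 25 to 84, which are shown for that reason (TAIR10.1, capitals mark bases that differ from *LHCB1.1*).
LHCB1.1 (chr1:10475809-10475868, minus strand): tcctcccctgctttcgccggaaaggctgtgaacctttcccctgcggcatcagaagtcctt
LHCB1.2 (chr1:10473163-10473222, minus strand): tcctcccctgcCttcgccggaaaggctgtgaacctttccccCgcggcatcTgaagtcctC
LHCB1.3 (chr1:10478095-10478154, plus strand): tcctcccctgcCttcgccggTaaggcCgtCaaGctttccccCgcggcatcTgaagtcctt
In this stretch *LHCB1.2* differed from *LHCB1.1* at 4 positions and *LHCB1.3* at 7. In contrast, positions 640 to 699 were the first of these windows that is the same in all 3 copies. No read lying within it could be given to 1 copy.
LHCB1.1 (chr1:10475194-10475253, minus strand): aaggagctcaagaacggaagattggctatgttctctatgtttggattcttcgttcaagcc

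Reads of such stretches are counted apart in the table. Reads with several alignments made up 57.4% of the summed CPM (read counts scaled to library size), and all genes together 39.3%. The 57.4% is a single entry for reads of all sources, and how much of it stems from these 42 genes is unknown. The share of 50-base words of each gene's exons that occur once in the genome was taken as a measure of how much of a gene can be counted. All words were unique in 34 of the 42 genes. In the other 8 the share was 79.5% for *LHCB1.1*, 89.4% for *LHCB1.2*, 83.0% for *LHCB1.3*, 86.3% for *LHCB1.4* (AT2G34430) and 82.7% for *LHCB1.5* (AT2G34420). It was 76.5% for *LHCB2.1* (AT2G05100), 70.5% for *LHCB2.2* (AT2G05070) and 88.6% for *LHCA2* (AT3G61470). Levels of these 8 genes are therefore uncertain, and are given also per kb of unique words where this moves a comparison. In 17 of the 42 genes the annotation overlaps another gene, and whether the counting used strand is not given in the sources used here. Neither this count nor the 34 genes with only unique words is set beside all genes, so neither is read as particular to this group.

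Nearly all of these genes were among the most abundant RNAs of the seedlings. On the log2 CPM scale, 40 of 42 lay in the top 10% of genes, where the background is 10% of all genes by construction, and 39 lay in the top 5%. Their median level was 9.75 log2 CPM, against 2.87 for all genes. Per kb of exon, the scale on which genes of different length can be compared, it was 9.76 log2 CPM per kb, against 1.93 for the 16604 genes with a length. The 42 genes together took 11.0% of the CPM of all genes. LHCB gave 39.6% of their summed CPM, LHCA 21.0%, PSA 20.8% and PSB 18.6%. Of the 20 genes with the highest log2 CPM, 11 were members among all genes and 16 among nuclear genes. Among nuclear genes the count was also 16 by log2 CPM per kb. These counts were chosen after the levels were seen. Which of neighbouring levels is higher could not be tested, as there is no spread.

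**Figure D1:**
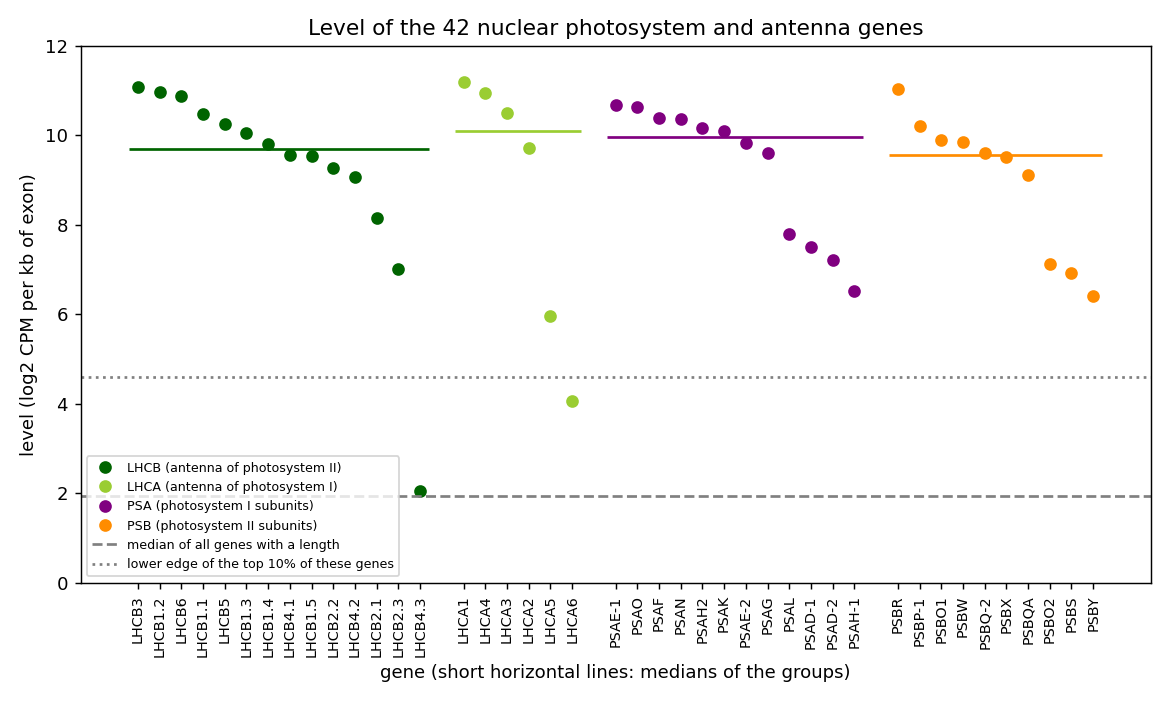
Level of each of the 42 genes in log2 CPM per kb of exon (y axis), sorted within the LHCB, LHCA, PSA and PSB groups (x axis), from the authors' mean over libraries. Short lines are group medians, the dashed line is the median of all genes with a length (1.93) and the dotted line the lower edge of their top 10% (4.60); *LHCA6* and *LHCB4.3* lie under the dotted line.

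The LHCB genes spanned the widest range of levels. *LHCB3* (AT5G54270), a minor partner in the trimers of the major antenna, was highest at 11.08 log2 CPM per kb. *LHCB6* (AT1G15820) and *LHCB5* (AT4G10340), single-copy monomeric antenna proteins (CP24 and CP26) that link the trimers to the photosystem II core, were at 10.88 and 10.26. The 5 LHCB1 genes lay between 9.53 and 10.96 log2 CPM per kb, with *LHCB1.2* highest and *LHCB1.5* lowest. *LHCB1.2* was 2.70-fold higher than *LHCB1.5* per kb of exon and 2.48-fold per kb of unique words. *LHCB1.4* and *LHCB1.5* form a second pair of neighbours, 1038 bp apart on chromosome 2 in opposite orientation, with levels of 9.81 and 9.53.

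The LHCB2 genes, which encode the other major trimer protein and are phosphorylated in state transitions, were lower than the LHCB1 genes per kb of exon. Per kb of unique words *LHCB2.2* (AT2G05070), at 9.90, was instead above *LHCB1.5*, at 9.87. That scale also leaves out words across exon joins, and *LHCB2.2* has 2 exon blocks against 1 in *LHCB1.5*. The order therefore does not rest on uniqueness alone. *LHCB2.2* was at 9.27, *LHCB2.1* at 8.16 and *LHCB2.3* (AT3G27690) at 7.01 log2 CPM per kb. *LHCB2.1* and *LHCB2.2* were 96.6% identical in coding sequence and lie 22517 bp apart on the same strand of chromosome 2. *LHCB2.2* was 2.16-fold higher than *LHCB2.1* per kb of exon and 2.38-fold per kb of unique words. Its ratio to *LHCB2.3* depended more on the scale, at 4.77-fold per kb of exon, 6.90-fold per kb of unique words and 3.81-fold per kb of the representative transcript.

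The LHCB4 genes encode CP29, another monomeric antenna protein. *LHCB4.1* (AT5G01530) was at 9.56 and *LHCB4.2* (AT3G08940) at 9.06 log2 CPM per kb, 1.41-fold apart. *LHCB4.3* (AT2G40100) was at 2.04, close to the median of all genes, and was thereby the lowest of the 42 genes. *LHCB4.1* was 184-fold and *LHCB4.2* 131-fold higher than *LHCB4.3* per kb of exon. All 50-base words of the 3 genes were unique. The predicted proteins of *LHCB4.1* and *LHCB4.2* were 88.7% identical, while those of *LHCB4.1* and *LHCB4.3* were 67.5% identical.

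The LHCA genes fell into 4 high and 2 low ones. *LHCA1* (AT3G54890) was the highest of all 42 genes per kb of exon, at 11.20 log2 CPM per kb (2992 CPM). Per kb of unique words *PSBR* (AT1G79040) was higher, at 11.45 against 11.38, but all words of both genes were unique. The change of order comes from words that had to fit within 1 exon block. *PSBR* has 4 blocks in 784 bp and *LHCA1* 3 in 1273 bp. Next among the LHCA genes per kb of exon came *LHCA4* (AT3G47470) at 10.95, *LHCA3* (AT1G61520) at 10.50 and *LHCA2* at 9.71. These are the 4 antenna proteins that form the LHCI belt of photosystem I. *LHCA5* (AT1G45474) was at 5.97 and *LHCA6* (AT1G19150) at 4.06 log2 CPM per kb. Their proteins are known as linkers that join photosystem I to the chloroplast NDH complex. *LHCA6* was the other gene outside the top 10%, at percentile 78.3 by log2 CPM, while *LHCB4.3* was at percentile 43.4 (19.4 and 5.94 CPM).

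Among the photosystem I subunits, 8 of 12 lay between 9.60 and 10.69 log2 CPM per kb. *PSAE-1* (AT4G28750), a stromal subunit at the ferredoxin docking site, was at 10.69. *PSAO* (AT1G08380) was at 10.64 and *PSAF* (AT1G31330), which binds plastocyanin, at 10.38. *PSAN* (AT5G64040), a lumenal subunit, was at 10.36, *PSAH2* (AT1G52230) at 10.16, *PSAK* (AT1G30380) at 10.09, *PSAE-2* (AT2G20260) at 9.83 and *PSAG* (AT1G55670) at 9.60. The other 4 were lower, with *PSAL* (AT4G12800) at 7.79, *PSAD-1* (AT4G02770) at 7.49, *PSAD-2* (AT1G03130) at 7.21 and *PSAH-1* (AT3G16140) at 6.52. PSAD is the main ferredoxin-docking subunit, and both of its copies were among these 4 lower genes and 1.22-fold apart. The PSAH copies, which encode a subunit where mobile LHCII docks, differed most within this group. *PSAH2* was 12.5-fold higher than *PSAH-1* per kb of exon, with predicted proteins 91.8% identical. Per kb of unique words it was 14.0-fold, but all words of both copies were unique. The shift comes from words that had to fit within 1 exon block.

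Among the photosystem II subunits, *PSBR* was highest at 11.04 log2 CPM per kb. The extrinsic proteins that stabilise the water-oxidising cluster were also high, with *PSBP-1* (AT1G06680) at 10.21, *PSBO1* (AT5G66570) at 9.89, *PSBQ-2* (AT4G05180) at 9.60 and *PSBQA* (AT4G21280) at 9.11. *PSBO2* (AT3G50820), the other copy of the PSBO gene, was at 7.12, so that *PSBO1* was 6.83-fold higher. The small membrane subunits *PSBW* (AT2G30570) and *PSBX* (AT2G06520) were at 9.85 and 9.51, and *PSBY* (AT1G67740) was at 6.40. *PSBS* (AT1G44575), the sensor of lumen acidity needed for rapid heat dissipation of excess light, was at 6.93. The PSBQ copies were 1.41-fold apart.

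**Figure D2:**
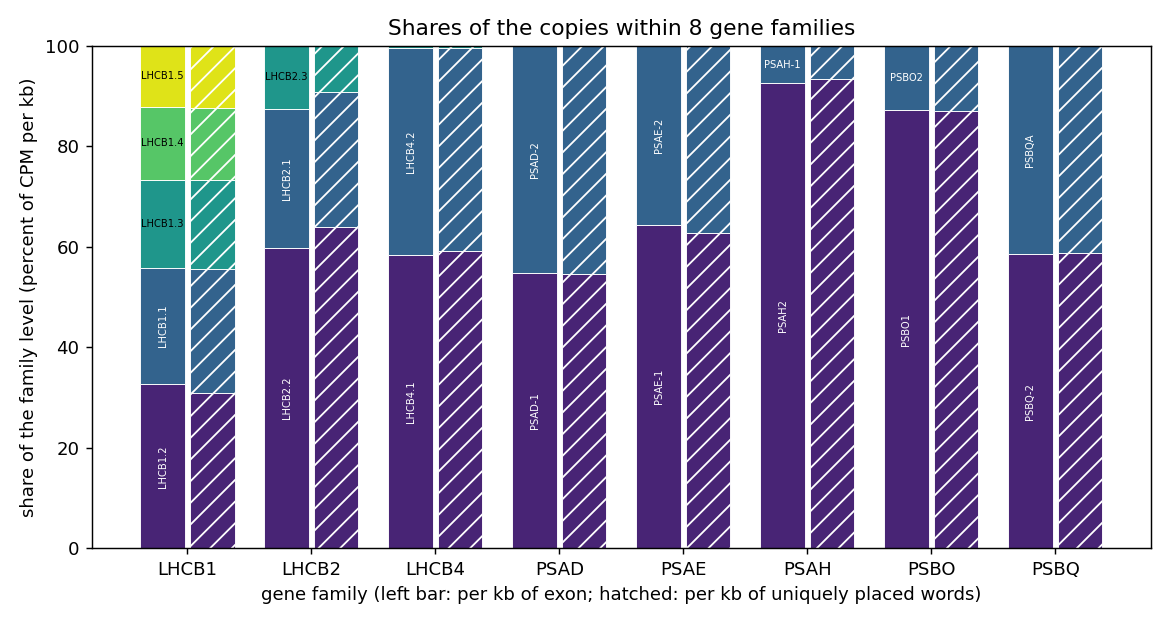
Share of each copy in the summed level of its family, in percent of CPM per kb (y axis), for 8 families (x axis). Left bars are per kb of exon and hatched bars per kb of uniquely placed words; *PSAH2* holds 92.6% and *PSBO1* 87.2% of their families per kb of exon, while *LHCB4.3*, too thin to label, holds 0.317%.

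The order of the 4 groups depended on length. By log2 CPM the medians were 10.70 for LHCA, 10.12 for LHCB, 9.45 for PSA and 9.44 for PSB. Per kb of exon they were 10.10, 9.69, 9.96 and 9.56, so that PSA, whose genes are short (median exon length 887.5 bp against 1313 bp for LHCB), stood above LHCB. Each group's own range was wider than these differences.

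Other genes of photosynthesis give a frame for these levels. The share of unique words is not given for them, so similar copies such as the RBCS genes may be undercounted. The 5 Rubisco genes listed (small subunits and the activase *RCA*) had a median of 8.53 log2 CPM per kb, led by *RBCS1A* at 10.30. The 6 electron transport genes had a median of 8.69, with the ferredoxin gene *FD2* at 10.00. Plastocyanin is encoded by *PETE2*, at 9.53, and *PETE1*, at 6.33. The 6 chlorophyll synthesis genes were lower, with a median of 5.85, from *PORA* at 2.12 to *PORB* at 7.57. *GLK1* and *GLK2*, transcription factors that activate photosystem and antenna genes, were at 3.28 and 2.97. The early light-induced genes *ELIP1* and *ELIP2* were not among the genes of the table. *AGO4* itself was at 1.99 log2 CPM per kb, a mean over both genotypes. Levels of markers of other seedling and plant tissues are given in log2 CPM and not per kb. Of the 5 root genes, 3 were found (*PHO1*, *SCR* and *SHR*), at up to 2.73 log2 CPM. The median of all genes on that scale was 2.87. The root genes *EXPA7* and *COBL9* were not found, and of the seed genes 0 of 3 were found. Whether the 3 root genes found mark root tissue in these samples was not tested. The markers of guard cells (*FAMA*, *KAT1*), epidermis (*ATML1*) and phloem companion cells (*SUC2*) were between 2.80 and 4.43 log2 CPM.

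The bases before the genes were searched for 4 motifs known from plant promoters, on both strands from 250 bases before to 50 bases after the RefSeq gene start. The G-box core CACGTG was present in 14 of 42 genes (33.3%), against 9.02% of 16150 nuclear coding promoters of the table. GATAAG, the I-box core, was present in 17 (40.5%, against 15.3%). CCAAT was present in 31 (73.8%, against 54.4%) and GCCAC in 22 (52.4%, against 19.8%). GCCAC and CACGTG overlap where GCCACGTG occurs, so their counts are not separate. In the 250 bases before the start only, CACGTG was found in 8 genes (19.0%, against 7.43% of all promoters) and GATAAG in 9 (21.4%, against 12.7%). CCAAT was found there in 27 (64.3%, against 48.6%) and GCCAC in 18 (42.9%, against 15.9%). A match describes the letters and not a bound site.

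Promoters of the 2 families with the largest ratios between copies are shown. The last 120 bases before the start are given 5′ to 3′ for the PSAH and 2 of the LHCB4 genes, with matches to the 4 motifs in capitals (TAIR10.1, sequence from RefSeq).
PSAH2 (chr1:19454678-19454797, plus strand): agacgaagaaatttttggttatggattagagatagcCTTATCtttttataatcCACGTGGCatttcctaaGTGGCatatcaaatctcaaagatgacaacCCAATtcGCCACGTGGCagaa
PSAH-1 (chr3:5469595-5469714, minus strand): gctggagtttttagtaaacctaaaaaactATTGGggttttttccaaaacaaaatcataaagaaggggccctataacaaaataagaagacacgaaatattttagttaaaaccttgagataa
LHCB4.1 (chr5:208746-208865, plus strand): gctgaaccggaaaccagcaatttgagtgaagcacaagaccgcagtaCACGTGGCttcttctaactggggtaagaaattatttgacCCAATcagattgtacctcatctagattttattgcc
LHCB4.3 (chr2:16745508-16745627, plus strand): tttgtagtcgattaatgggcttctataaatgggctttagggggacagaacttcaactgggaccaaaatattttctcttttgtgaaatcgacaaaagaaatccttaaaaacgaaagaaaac
In the 250 bases before the start, *PSAH2*, the higher copy, had 2 CACGTG matches and *PSAH-1* 0, but with the 50 bases after the start included both copies held CACGTG. *LHCB4.1* had 1 CACGTG match before the start, and *LHCB4.2* and *LHCB4.3*, which are 131-fold apart, both had 0. There *LHCB4.2* had 1 GATAAG and 1 GCCAC match and *LHCB4.3* 0 of each, and both had 1 CCAAT match. The other families showed no common order of CACGTG matches and levels, and the other motifs were not compared between their copies. *PSAE-2*, the lower copy, had 1 and *PSAE-1* 0 before the start, and both held CACGTG in the longer window. *LHCB2.3*, the lowest LHCB2 copy, had 1, and *LHCB2.1* and *LHCB2.2* had 0. *PSBO1* and *PSBO2*, 6.83-fold apart, both had 0 before the start and both held CACGTG in the longer window. *PSBQA* and *PSBQ-2*, 1.41-fold apart, both had 2. The LHCB1 and PSAD copies had 0.

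The Hi-C files ask whether regions with altered methylation in *nrpe1* (differentially methylated regions, DMRs) make contacts in the mutants. They list DMRs with interactions, 1 list for each *ago4* and *nrpe1* replicate, and hold 541 distinct DMRs. The *ago4* lists hold 215, 265 and 207 DMRs and the *nrpe1* lists 50, 176 and 65, with no list for Col-0. Absence from an *nrpe1* list therefore cannot be read as a difference between genotypes. They do not name the partner of a contact, so only the distance from a gene to a listed DMR was measured. A listed DMR lay within 10 kb of 2 of the 42 genes (4.76%), against a background of 7.46% of the 16604 nuclear genes. Within 2.5 kb it was 1 gene (2.38%, against 2.27%) and within 50 kb 17 genes (40.5%, against 26.8%). For DMRs upstream of the gene within 10 kb it was the same 2 genes (4.76%, against 4.16%). With only 2 genes, neither share within 10 kb is read as differing from that of all genes. The median distance was 73.0 kb, and 133 kb for all nuclear genes. Neighbouring members share DMRs, and the 3 LHCB1 genes on chromosome 1 count the same one.

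Both genes within 10 kb encode antenna proteins, as do 14 LHCB and 6 LHCA genes of the 42, so this is not read as particular to antenna genes. *LHCA3* had a DMR ending 71 bp before its start, present only in the list named *ago4* replicate 1. *LHCB2.1* had a DMR 3488 bp upstream, in the lists named *ago4* replicate 1 and *nrpe1* replicate 1. Just outside 10 kb were *PSBS* at 10256 bp, *LHCB1.3* at 11393 bp and *PSBW* at 11665 bp. *PSAF*, at 12429 bp, was the nearest gene whose DMR was in all 3 *ago4* lists. The DMR nearest to *PSAL*, 57544 bp away, was in all 6 lists. Without the list named *ago4* replicate 1, only *LHCB2.1* remained within 10 kb. That list alone placed a DMR within 10 kb of 2 members (4.76%) and of 3.02% of all nuclear genes. The 250 bases before *LHCA3* are shown because they hold the edge of its DMR, and the first 180 bases, in capitals, lie inside it.
LHCA3 (chr1:22699465-22699714, plus strand): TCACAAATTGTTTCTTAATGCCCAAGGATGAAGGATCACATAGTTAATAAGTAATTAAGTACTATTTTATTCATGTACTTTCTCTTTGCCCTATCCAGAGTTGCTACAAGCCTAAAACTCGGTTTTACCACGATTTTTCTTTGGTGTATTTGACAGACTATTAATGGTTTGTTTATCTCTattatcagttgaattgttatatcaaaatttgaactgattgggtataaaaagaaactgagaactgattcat

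**Figure D3:**
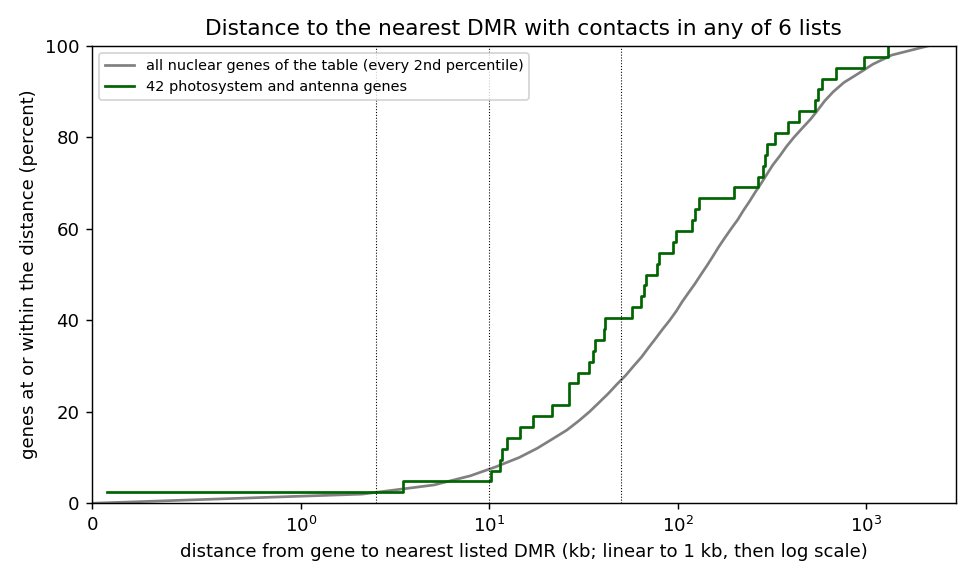
Percent of genes (y axis) with a listed DMR at or within a given distance in kb (x axis, linear to 1 kb and then log), for the 42 genes (green steps) and all 16604 nuclear genes (grey). Dotted lines mark 2.5, 10 and 50 kb; the 42 genes are at 4.76% against 7.46% at 10 kb and at 40.5% against 26.8% at 50 kb.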

How the data were processed

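RNA-seq reads were mapped by the authors to TAIR10 with TopHat2 and compared with edgeR, and Hi-C reads were mapped with Bowtie (versions not given in the sources used here). The authors deposited, per gene, a mean log2 CPM over libraries, which was used, and a log2 fold change and an unadjusted p-value, which were not, since they hold the authors' own comparison. Each of the 6 DMR lists deposited by the authors gives a chromosome, a start, an end and 2 unlabelled numbers. Only positions were used, from lists called here by their names, and whether starts count from 0 or 1 is unknown. Depth and the spread between replicates are unknown, so no test was run and differences are descriptions. The members and lists of genes were chosen with earlier results of these data known.

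Of the summed CPM, 2.22% was in reads of no gene, 1.02% in reads of several genes and 57.4% in reads with several alignments. These 3 entries were left out of the genes, except in 1 alternative. Lengths, positions, motifs and sequences came from RefSeq TAIR10.1, whose annotation is later than the authors', with exons of all transcripts joined. 151 genes had no nuclear match. Words of 50 bases within exons were sought in the genome only, so words across exon joins were not counted, and levels per kb of unique words need at least 100 such words. Linear CPM is 2 to the power of the mean log2 CPM. Coding sequences and representative transcripts are those of the oldest RefSeq protein of each gene, a choice made after identities of the longest isoforms were seen; the isoforms differ in length. The 60-base windows, ratios within families, numbers among the highest genes and printed promoters were also chosen after the values were seen. All 42 members were named, with lists of context and tissue genes. Plastid-encoded photosystem genes are not used here, as their identifiers were not paired with names. Calculations used Python 3.11.15, numpy 2.4.6, pandas 2.3.3, Biopython 1.88 and matplotlib 3.10.9. The search for unique words was tested on simulated sequence with planted copies.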

Additional observations from a re-analysis of the deposited data

How the results depend on the processing

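The count of 40 genes in the top 10% was the same per kb of exon, per kb of unique words, per kb of the representative transcript (an alternative chosen after seeing the data), among nuclear coding genes and among genes with a log2 CPM of at least 0; it was 39 for the top 5%. The share of CPM was 11.0% of all genes, 4.34% of all entries of the table and 12.6% of nuclear coding genes. Per kb of exon, of representative transcript and of unique words, the medians were 10.10, 10.24 and 10.34 for LHCA, 9.69, 9.69 and 9.99 for LHCB, 9.96, 9.96 and 10.31 for PSA and 9.56, 9.68 and 9.73 for PSB. All words of the PSA genes were unique, so the rise from 9.96 to 10.31 comes from words that had to fit within 1 exon block. Genes with a listed DMR numbered 1 within 2.5 kb, 17 within 50 kb and 2 for upstream DMRs within 10 kb (4.76%, against 4.16% of all nuclear genes). When each list was left out in turn the count was 1 to 2, with no share of all nuclear genes to set beside it. The lowest share of unique words was 62.9% with 36-base words and 86.3% with 100-base words. Before the start only, CACGTG was found in 8 of the 42 genes (19.0%, against 7.43% of all promoters), GATAAG in 9 (21.4%, against 12.7%), CCAAT in 27 (64.3%, against 48.6%) and GCCAC in 18 (42.9%, against 15.9%). No paired analysis was possible because the RNA-seq table holds no value of a single library and no result comes from a test. Without values per library, no difference between genes can be set against replicate error.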
